A study of Mus musculus with 2 samples.

Results

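The immunity-related GTPases are a mouse family of interferon-inducible GTP-binding proteins that guard cells against pathogens living inside vacuoles. The regulators Irgm1, Irgm2 and Igtp (also called Irgm3) sit on the cell's own membranes and hold the effectors inactive there. The effectors Iigp1 (Irga6), Tgtp1 and Tgtp2 (Irgb6) and Ifi47 (Irgd) gather on the vacuole of an invading pathogen, where the family is known for breaking the vacuole membrane. Gm4951 is counted with the effectors from its family membership alone.

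The family was chosen by gene symbol, with no measured value in the choice. Of 9 symbols, 8 had a row among the 28692 genes of the files, and Gm12250 (Irgb10) was not analysed here. The regulators were Irgm1 (ENSMUSG00000046879), Irgm2 (ENSMUSG00000069874) and Igtp (ENSMUSG00000078853). The effectors were Iigp1 (ENSMUSG00000054072), Tgtp1 (ENSMUSG00000078922), Tgtp2 (ENSMUSG00000078921), Ifi47 (ENSMUSG00000078920) and Gm4951 (ENSMUSG00000073555). Tgtp1 and Tgtp2 are near-identical copies, so their values are uncertain one by one and their sum is given as well.

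RNA was counted in single cells from tumours of A20, a mouse lymphoma line of B cell origin, grown under the skin of Balb/c mice, the strain the line comes from. The treated mice received TAK-981 intravenously at 7.5 mg/kg, and the controls received its 20% HPbCD (cyclodextrin) vehicle. TAK-981 blocks the activating enzyme of SUMOylation, the attachment of the small protein SUMO to other proteins, many of which regulate transcription. Tumours were taken after 8 h in both arms, each arm is 1 library, and the labels do not state how many mice stand behind a library. Since an arm is 1 library, the arms were compared without a test, and every 95% interval below covers counting error only. Each count is a unique molecular identifier (UMI), which stands for 1 captured RNA molecule, so levels are given as CPM, the UMIs of a gene per 1000000 UMIs of the cell class, with no scaling for transcript length.

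The TAK-981 library held 2396 barcodes with 37470319 UMIs, and the vehicle library 2579 barcodes with 57471750 UMIs. Barcodes with 10% or more mitochondrial UMIs, 376 in the TAK-981 library, against 124 in the vehicle library, were left out. T cells were those with at least 2 UMIs of Cd3d, Cd3e and Cd3g together, 45 in the TAK-981 library, against 60 in the vehicle library. Myeloid cells had at least 5 UMIs of Lyz2 and numbered 39 in the TAK-981 library, against 44 in the vehicle library. A20 cells had a Cd79a UMI and none of Cd3 or Lyz2, and numbered 1754 in the TAK-981 library, against 2191 in the vehicle library. Median UMIs per cell in the TAK-981 and vehicle libraries were 7156 and 9068 in T cells, 8287 and 10636.5 in myeloid cells, and 16195 and 22309 in A20 cells.

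The 6 T cell, the 6 myeloid and the 6 B cell markers listed were all detected in the class they name. A20 cells and host B cells share their markers and were not separated. B cell markers were also found in host cells, in 15 of 45 TAK-981 and 18 of 60 vehicle T cells and in 9 of 39 TAK-981 and 9 of 44 vehicle myeloid cells. The myeloid classes differed in make-up: a complement C1q gene, a macrophage marker, was seen in 0 of 39 TAK-981 cells (by the limit of 3 counts, up to 7.69% of cells could hold a UMI) and in 8 of 44 vehicle cells. Neutrophil markers were found in 21 of 39 TAK-981 and 18 of 44 vehicle myeloid cells. Among them S100a8 was seen in 12 TAK-981 and 4 vehicle cells, S100a9 in 2 and 0, and Csf3r in 14 and 15.

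Interferon-inducible promoters carry short elements that the interferon pathway's transcription factors bind. The interferon-stimulated response element (ISRE) is bound by a complex that contains STAT2 and IRF9, and by other IRF proteins. The gamma-activated site (GAS) is the element of genes that answer to interferon gamma. In RefSeq, 7 of the 9 members lie on chromosome 11 in 2 groups of neighbours, and the 250 bases before each listed start were searched on both strands for the ISRE core (GAAA, any 2 bases, GAAA) and for the GAS pattern TTCNNNGAA. The stretches that hold the matches are shown for the members whose values the results below turn on, to set the family's control regions side by side (build GRCm38.p6, each read along the gene's own strand, 5′ to 3′). Capitals mark the matches. In Irgm1 (chr11:48871421-48871477, minus strand) 2 ISRE matches overlap. In Tgtp1 (chr11:48992290-48992346, minus strand), Tgtp2 (chr11:49064249-49064305, minus strand), Igtp (chr11:58199499-58199555, plus strand) and Irgm2 (chr11:58214890-58214946, plus strand) the first run of capitals is the GAS match and the second the ISRE match.
Irgm1: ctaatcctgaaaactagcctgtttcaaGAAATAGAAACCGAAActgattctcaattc
Tgtp1: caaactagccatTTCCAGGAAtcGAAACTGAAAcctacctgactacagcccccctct
Tgtp2: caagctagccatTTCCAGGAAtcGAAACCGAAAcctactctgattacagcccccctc
Igtp: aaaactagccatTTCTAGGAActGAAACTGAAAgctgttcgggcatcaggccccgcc
Irgm2: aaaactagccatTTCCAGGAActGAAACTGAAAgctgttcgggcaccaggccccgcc

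The ISRE core was found before 6 of these 7 genes, against 978 of 32841 RefSeq promoters (2.98%) of the same length. The GAS pattern was found before 5 of 7, against 2306 promoters (7.02%). In Tgtp1, Tgtp2, Igtp and Irgm2 the ISRE match begins 11 bases after the start of the GAS match. That arrangement, looked for after the sequences had been seen, occurs in 5 of the 32841 promoters (0.0152%). The fifth is Gm12185, which RefSeq also lists under the family name Irgb2b1. Set side by side without gaps, the stretches of the regulators Igtp and Irgm2 differ at 2 of 57 bases and those of the copies Tgtp1 and Tgtp2 at 15 of 57. Most of those 15 come from an extra base in Tgtp2 after the ISRE match, which puts the bases behind it out of step. Ifi47 had no match of either pattern in its window. A match describes these letters only, and no binding was measured.

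The first question was how much more of the family's RNA the tumour's cells held after TAK-981. The family as a whole was higher after TAK-981 in each of the 3 cell classes, most in myeloid cells. Myeloid cells held 592 family UMIs in the TAK-981 library (1631 CPM, 1503 to 1768), against 87 in the vehicle library (163 CPM, 131 to 201), a ratio of 10.0 (7.98 to 12.7). T cells held 313 UMIs in the TAK-981 library (704 CPM, 628 to 786), against 120 in the vehicle library (139 CPM, 115 to 166), a ratio of 5.06 (4.09 to 6.30). A20 cells held 1922 UMIs in the TAK-981 library (59.2 CPM, 56.6 to 61.9), against 793 in the vehicle library (15.0 CPM, 13.9 to 16.0), a ratio of 3.96 (3.64 to 4.30). In none of the 3 classes did the intervals of both libraries overlap. As CPM, the vehicle T and myeloid cells already held more of the family than the TAK-981 A20 cells did.

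Every member whose UMIs in the class summed to 10 or more over the libraries was at least 2-fold higher in the TAK-981 library, with the ratio taken on class totals. That was so for 6 of 6 such members in T cells, where 6.32% of the 7868 genes measured were at least 2-fold higher. In myeloid cells it was again 6 of 6, against 10.8% of 6417 genes, and in A20 cells 7 of 7, against 3.46% of 12250 genes. The median log2 ratio of these members was 2.45 in T cells, 3.39 in myeloid cells and 1.68 in A20 cells. Over all genes measured it was -0.04, -0.09 and 0.06 in the same order of classes. The members left uncounted were Tgtp1 and Gm4951 in T and myeloid cells, and Gm4951 in A20 cells.

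**Figure D1:**
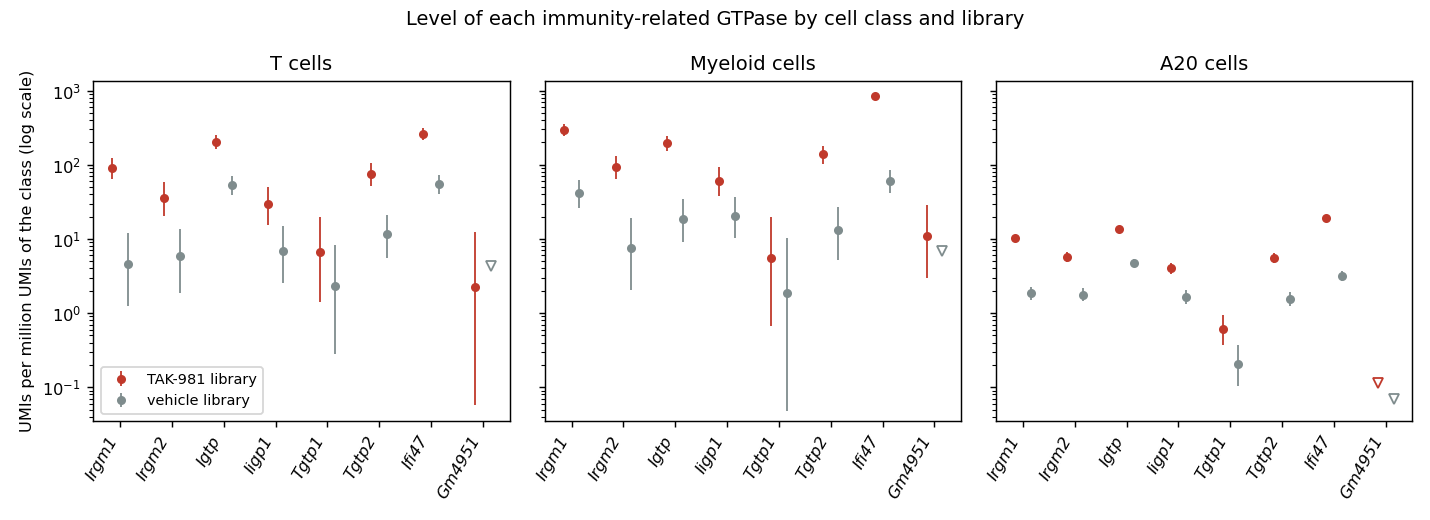
CPM (log axis) for each of the 8 genes in the TAK-981 library (red, left) and vehicle (grey, right) library, with exact 95% counting intervals. For 0 UMIs, open triangles mark the upper end of that interval in T, myeloid and A20 cells. In the 3 classes Irgm1, Irgm2, Igtp, Iigp1, Tgtp2 and Ifi47 lie higher in the TAK-981 library, and the A20 values lie below those of the host cells of the same library.

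Among the regulators, Irgm1, which anchors on host membranes such as the Golgi and endosomes, had its highest ratio in T cells, where the vehicle value rests on 4 UMIs. It had 40 UMIs in TAK-981 T cells and 4 in vehicle T cells (89.9 and 4.64 CPM), a ratio of 19.4 (7.01 to 74.6). It was seen in 24 of 45 TAK-981 and 4 of 60 vehicle T cells. In myeloid cells Irgm1 had 107 UMIs in the TAK-981 library, against 22 in the vehicle library (295 and 41.2 CPM), a ratio of 7.16 (4.49 to 11.9). In A20 cells it had 334 UMIs in the TAK-981 library, against 99 in the vehicle library (10.3 and 1.87 CPM), a ratio of 5.51 (4.39 to 6.97). Vehicle T cells thus had little Irgm1 beside vehicle myeloid cells, and their intervals (1.26 to 11.9 and 25.8 to 62.4 CPM) did not overlap. The log2 ratio of Irgm1 was higher in T than in A20 cells by 1.82 (0.30 to 3.33), while myeloid minus T cells was -1.44 (-3.06 to 0.19), an interval that includes 0. These differences were not tested over animals.

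Igtp, the regulator that vehicle T and A20 cells held most of, had the smallest regulator ratios there. It had 91 UMIs in TAK-981 T cells and 46 in vehicle T cells (205 and 53.3 CPM), a log2 ratio of 1.94 (1.41 to 2.48), and was seen in 35 of 45 TAK-981 and 22 of 60 vehicle cells. In A20 cells it had 443 UMIs in the TAK-981 library, against 253 in the vehicle library (13.6 and 4.77 CPM), a log2 ratio of 1.52 (1.29 to 1.74). In myeloid cells it had 71 UMIs in the TAK-981 library, against 10 in the vehicle library (196 and 18.7 CPM), a log2 ratio of 3.38 (2.42 to 4.51). The myeloid log2 ratio was higher than that of T cells by 1.44 (0.36 to 2.53) and than that of A20 cells by 1.87 (0.89 to 2.85). TAK-981 T cells and TAK-981 myeloid cells reached levels of Igtp whose intervals overlap (165 to 251 and 153 to 247 CPM), from vehicle levels whose intervals do not (39.0 to 71.1 and 8.98 to 34.4 CPM).

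Irgm2, which in mice also restrains inflammasome responses to bacterial lipopolysaccharide, followed the family order. It had 16 UMIs in TAK-981 T cells and 5 in vehicle T cells, a log2 ratio of 2.63 (1.12 to 4.44). In myeloid cells it had 34 UMIs in the TAK-981 library, against 4 in the vehicle library, a log2 ratio of 3.64 (2.16 to 5.60). In A20 cells it had 185 UMIs in the TAK-981 library, against 94 in the vehicle library, a log2 ratio of 1.68 (1.32 to 2.06). Thinning every cell to 4000 UMIs gave lower host values, 2.00 in T cells and 2.76 in myeloid cells.

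Ifi47 was the most abundant effector in every class and library. Myeloid cells held 302 UMIs of it in the TAK-981 library, against 32 in the vehicle library (832 and 59.9 CPM), a ratio of 13.9 (9.63 to 20.7). It was seen in 36 of 39 TAK-981 and 8 of 44 vehicle myeloid cells. One vehicle myeloid cell held 14 of the 32 UMIs (43.8%), and without the cell with most Ifi47 in each library the log2 ratio was 4.43, against 3.80 (3.27 to 4.37) with all cells. T cells held 116 UMIs of Ifi47 in the TAK-981 library, against 47 in the vehicle library (261 and 54.5 CPM), a log2 ratio of 2.26 (1.76 to 2.78). A20 cells held 629 UMIs in the TAK-981 library, against 166 in the vehicle library (19.4 and 3.13 CPM), a log2 ratio of 2.63 (2.38 to 2.88). Vehicle T and vehicle myeloid cells thus held Ifi47 at levels whose intervals overlap, while the TAK-981 levels of these classes (216 to 313 and 741 to 932 CPM) do not. The log2 ratio of Ifi47 was higher in myeloid than in T cells by 1.54 (0.82 to 2.25) and than in A20 cells by 1.17 (0.59 to 1.75).

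Tgtp1 and Tgtp2, the Irgb6 copies, differed widely in UMIs: over all barcodes Tgtp1 had 27 in the TAK-981 library, against 15 in the vehicle library, and Tgtp2 282 in the TAK-981 library, against 101 in the vehicle library. How the counting divided reads between the copies is not given in the sources used here. Their sum had 36 UMIs in TAK-981 T cells and 12 in vehicle T cells, a log2 ratio of 2.54 (1.57 to 3.62). In myeloid cells the sum had 52 UMIs in the TAK-981 library, against 8 in the vehicle library, a log2 ratio of 3.26 (2.17 to 4.54). In A20 cells it had 201 UMIs in the TAK-981 library, against 94 in the vehicle library, a log2 ratio of 1.80 (1.44 to 2.17). The copies together followed the order of the family, with myeloid above A20 cells by 1.45 (0.32 to 2.58).

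Iigp1, a well-studied effector against Toxoplasma, lay in few cells. In A20 cells it had 130 UMIs in the TAK-981 library, against 87 in the vehicle library, in only 44 of 1754 TAK-981 and 31 of 2191 vehicle cells, and 1 vehicle cell held 25 of the 87. The A20 log2 ratio was 1.29 (0.88 to 1.70), and 1.96 with each cell thinned to 4000 UMIs. In myeloid cells it had 22 UMIs in 7 TAK-981 cells and 11 UMIs in 3 vehicle cells, a log2 ratio of 1.56 (0.45 to 2.75), and 2.28 with each cell weighted equally. In T cells it had 13 UMIs in 10 TAK-981 cells and 6 UMIs in 3 vehicle cells, a log2 ratio of 2.07 (0.58 to 3.75). Since 1 vehicle T cell held 4 of those 6 UMIs, the T cell value was 3.41 without the cell with most Iigp1 in each library. The 3 class values of Iigp1 differed from each other by less than their counting intervals.

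Gm4951 was at or near 0 UMIs in every class. It had 0 UMIs in the 1754 TAK-981 and the 2191 vehicle A20 cells, so that up to 0.171% of the TAK-981 and 0.137% of the vehicle cells could hold a UMI of it by the limit of 3 counts. It had 4 UMIs in 2 TAK-981 myeloid cells and 0 in vehicle myeloid cells. A floor of 3 counts for the vehicle class gives a ratio of 1.96 or more, which leaves out the counting error of the 4 UMIs. The exact intervals of the levels overlap (3.00 to 28.2 CPM in the TAK-981 and 0 to 6.91 CPM in the vehicle library). It had 1 UMI in TAK-981 T cells and 0 in vehicle T cells, too few for a ratio.

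**Figure D2:**
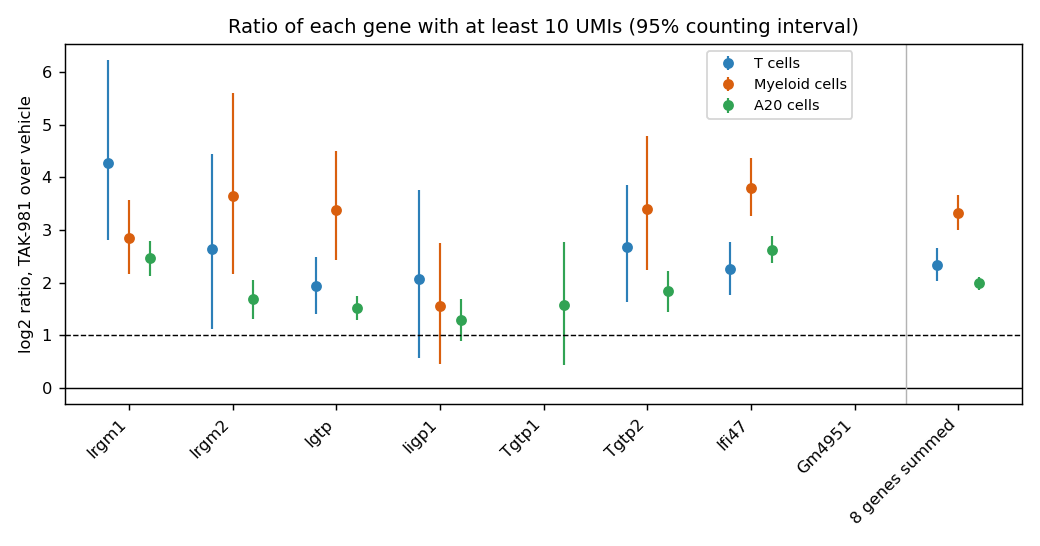
Log2 ratio of TAK-981 over vehicle for each gene with at least 10 UMIs in the class and for the 8 genes summed, with exact 95% counting intervals; the solid line is 0, the dashed line is 2-fold, and colours give T, myeloid and A20 cells. All points lie above 2-fold, the myeloid point is the highest for Irgm2, Igtp, Tgtp2 and Ifi47, and the T cell point is the highest for Irgm1 and Iigp1.

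By role, regulators and effectors differed little in T cells, with log2 ratios of 2.37 (1.92 to 2.85) and 2.31 (1.89 to 2.75). In myeloid cells the regulators had a log2 ratio of 3.12 (2.60 to 3.67) and the effectors 3.45 (3.03 to 3.91). In A20 cells the regulators had 1.82 (1.65 to 1.98) and the effectors 2.18 (2.00 to 2.36), intervals that do not overlap. The effector values rest largely on Ifi47. Without it, an alternative added after the data had been seen, the effectors had log2 ratios of 2.43 (1.63 to 3.29) in T, 2.59 (1.86 to 3.40) in myeloid and 1.58 (1.31 to 1.85) in A20 cells. In myeloid and A20 cells these lie below the regulators, with intervals that overlap theirs. The regulators made up 50.1% (47.8 to 52.3%) of the family's UMIs in TAK-981 and 56.2% (52.7 to 59.7%) in vehicle A20 cells.

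The members whose share of the family's UMIs differed between the libraries were not the same in each class. Ifi47 made up 51.0% (46.9 to 55.1%) of family UMIs in TAK-981 and 36.8% (26.7 to 47.8%) in vehicle myeloid cells. In A20 cells Ifi47 made up 32.7% (30.6 to 34.9%) in the TAK-981 library and 20.9% (18.2 to 23.9%) in the vehicle library, while Igtp made up 23.0% (21.2 to 25.0%) in the TAK-981 library, against 31.9% (28.7 to 35.3%) in the vehicle library. In T cells the share of Ifi47 was similar, at 37.1% in the TAK-981 library, against 39.2% in the vehicle library, while Irgm1 made up 12.8% (9.29 to 17.0%) in the TAK-981 library, against 3.33% (0.916 to 8.31%) in the vehicle library. In myeloid cells Igtp made up 71 of 592 family UMIs in the TAK-981 library, against 10 of 87 in the vehicle library, and Irgm1 18.1% in the TAK-981 library, against 25.3% in the vehicle library. Iigp1 made up a smaller share in the TAK-981 library, with 22 of 592 family UMIs in TAK-981 and 11 of 87 in vehicle myeloid cells, and 130 of 1922 in TAK-981 and 87 of 793 in vehicle A20 cells.

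**Figure D3:**
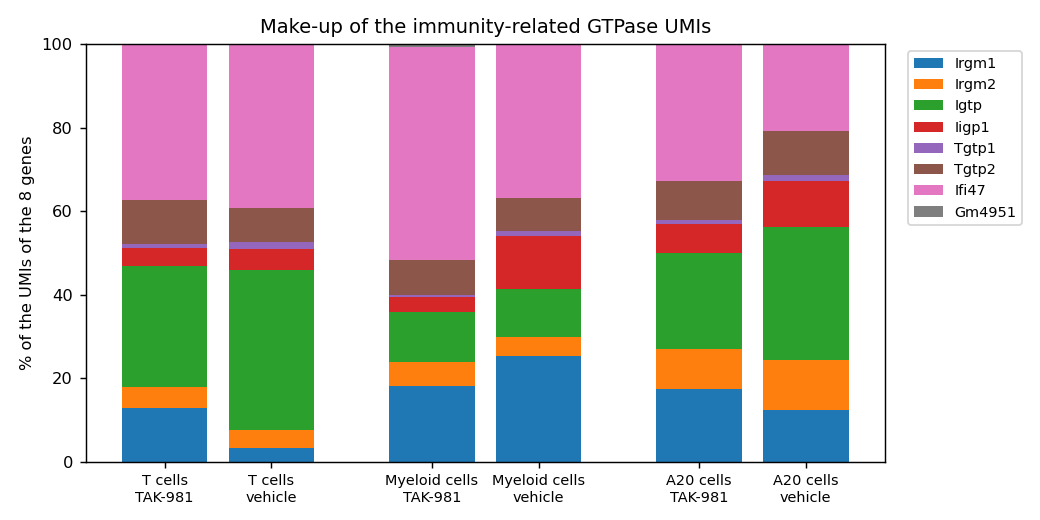
Share of each gene in the UMIs of the 8 genes (percent, stacked to 100) in T, myeloid and A20 cells, with the TAK-981 library left of the vehicle library in each class. Ifi47 takes 51.0% of family UMIs in TAK-981 myeloid cells and 36.8% in vehicle myeloid cells, and Igtp takes 23.0% in TAK-981 A20 cells and 31.9% in vehicle A20 cells.

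The second question was whether the higher level lay in many cells or few. In host cells most cells carried the family after TAK-981. At least 1 family UMI was found in 37 of 39 TAK-981 myeloid cells (94.9%, 82.7 to 99.4%) and in 17 of 44 vehicle myeloid cells (38.6%, 24.4 to 54.5%). In T cells it was found in 42 of 45 cells of the TAK-981 library (93.3%, 81.7 to 98.6%) and 35 of 60 of the vehicle library (58.3%, 44.9 to 70.9%). The median TAK-981 myeloid cell held 14 family UMIs from 4 different members, and the median vehicle myeloid cell held 0. The median T cell held 5 UMIs from 3 members in the TAK-981 library and 1 UMI from 1 member in the vehicle library. One vehicle myeloid cell held 27 of that class's 87 family UMIs, and without the cell with most in each library the family log2 ratio was 3.67.

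To compare shares at equal depth, each cell was thinned to 4000 UMIs, below the smallest cell of either library. The thinned shares were 94.9% in TAK-981 myeloid cells and 31.8% in vehicle myeloid cells, 75.6% and 40.0% in T cells, and 12.6% (11.1 to 14.2%) and 4.29% (3.48 to 5.22%) in A20 cells. No class that should lack the family was available, so the part of free RNA from outside the cells in these shares was not tested.

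**Figure D4:**
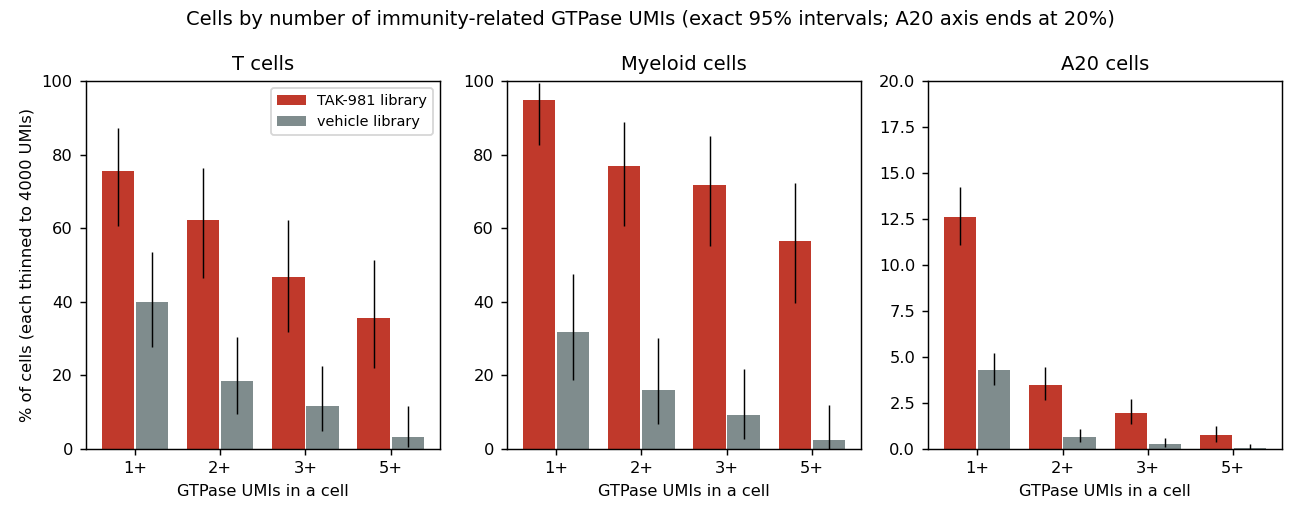
Percent of T, myeloid and A20 cells with at least 1, 2, 3 or 5 family UMIs after thinning each cell to 4000 UMIs, for the TAK-981 (red, left) and vehicle (grey, right) library, with exact 95% intervals; the A20 axis ends at 20%. The TAK-981 bars are higher at every step, and 94.9% of TAK-981 myeloid, 75.6% of TAK-981 T and 12.6% of TAK-981 A20 cells reach at least 1 UMI.

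Most A20 cells held no family UMI in either library, while in host cells, before thinning, that was so only for vehicle myeloid cells. Unthinned, 535 of 1754 TAK-981 cells (30.5%, 28.4 to 32.7%) and 424 of 2191 vehicle cells (19.4%, 17.7 to 21.1%) held at least 1. Cells with 5 or more family UMIs numbered 93 in the TAK-981 library (5.30%, 4.30 to 6.46%), against 23 in the vehicle library (1.05%, 0.667 to 1.57%). Those 93 cells held 62.2% of the family UMIs of TAK-981 A20 cells, and the 23 held 30.1% of those of vehicle A20 cells. The variance of the thinned family count was 3.31 times its mean in TAK-981 and 1.61 times in vehicle A20 cells. Ifi47 showed the same spread, with 3.33 UMIs per cell that had any in the TAK-981 library, against 1.60 in the vehicle library.

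Summed over pairs, members were found together in the same A20 cells more often than their single shares would give. Over the 21 pairs of the 7 members seen, thinned TAK-981 cells held both genes of a pair 107 times, against 19.5 from the product of the single shares. In vehicle A20 cells the same counts were 12 against 2.05. Single pairs lay above the product in 20 of 21 in the TAK-981 library, against 8 of 21 in the vehicle library. In vehicle A20 cells no product was above 0.265 cells, so the 8 of 21 only counts the pairs seen together at all. Many TAK-981 pairs also had a product under 1 cell, such as 0.103 for Tgtp1 with Tgtp2, so the 20 of 21 is in part such a count too. The ratios, 5.47 in the TAK-981 library, against 5.85 in the vehicle library, are descriptions over cells of 1 library each.

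A20 cells with more family UMIs also held more Isg15 and Irf1, the interferon-induced transcripts compared here. Isg15, a ubiquitin-like interferon-induced modifier, was at 382 CPM in the 93 TAK-981 cells with 5 or more family UMIs, 40.7 CPM in the 442 with 1 to 4, and 12.7 CPM in the 1219 with 0. In vehicle A20 cells the same groups, of 23, 401 and 1767 cells, had 40.3, 5.55 and 3.58 CPM of Isg15. Irf1, an interferon-induced transcription factor, was at 299, 89.5 and 53.0 CPM in the TAK-981 and at 221, 69.2 and 31.4 CPM in the vehicle groups, in the same order. In each of these groups the libraries thus lay closer together, as ratios, in Irf1 than in Isg15. The B cell receptor gene Cd79a, which the class rule requires, varied less, from 500 to 577 CPM over the TAK-981 and 415 to 486 CPM over the vehicle groups. Ighm, the heavy chain of IgM, was at 466, 394 and 344 CPM in the TAK-981 and at 307, 229 and 203 CPM in the vehicle groups, from 5 or more family UMIs down to 0.

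The family-rich A20 cells were deeper, with a median of 25211 UMIs per cell in the TAK-981 library, where cells with no family UMI had 14185. In the vehicle library these medians were 30284 and 20637. The part of depth in the grouping was not tested. The T cell and myeloid lists hold 12 markers, of which the class rule removes Cd3d, Cd3e, Cd3g and Lyz2. Of the rest, Cd2 of the T cell list was seen in 15 of the 93 TAK-981 cells (16.1%) and in 2 of the 23 vehicle cells, against 288 of all 1754 TAK-981 and 471 of all 2191 vehicle A20 cells. The others, among them Trac, Trbc2 and Csf1r, were at 0 UMIs in the 93 TAK-981 cells. The myeloid signalling adaptors Fcer1g and Tyrobp and the female transcript Xist were at 0 UMIs there too. Among the 23 vehicle cells Tyrobp was seen in 2 cells, and Cd14, Fcer1g and Xist in 1 cell each. Tyrobp reached 87.1 CPM over those 23 cells, against 2.92 CPM over all vehicle A20 cells. Whether host cells lie among the 23 was not tested.

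**Figure D5:**
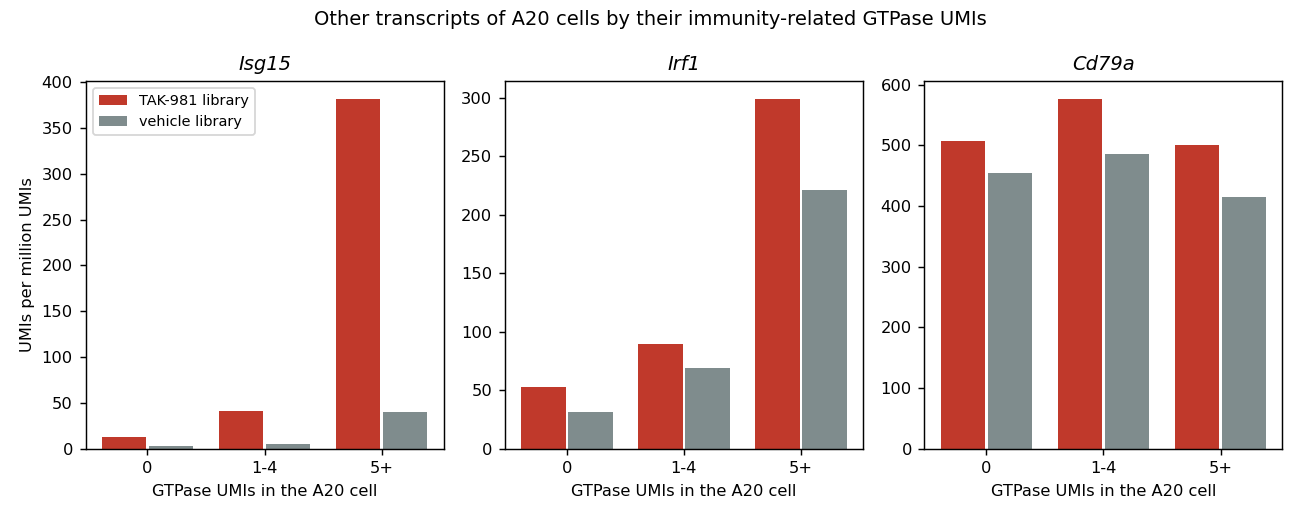
CPM of Isg15, Irf1 and Cd79a in A20 cells grouped by their number of family UMIs (0, 1 to 4, 5 or more), for the TAK-981 (red, left) and vehicle (grey, right) library; each panel has its own axis from 0. Isg15 reaches 382 CPM in TAK-981 and 40.3 CPM in vehicle cells with 5 or more family UMIs, while Cd79a stays between 415 and 577 CPM in all groups.

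Splitting the classes by other genes gave the following ratios. Isg15, which sets some of these groups, itself differed between the libraries, so the ratios within its groups are descriptions and do not show what part make-up has in the class ratio. A20 cells with an Isg15 UMI, 341 in the TAK-981 library (19.4%), against 180 in the vehicle library (8.22%), held 154 CPM of the family in the TAK-981 library, against 26.4 CPM in the vehicle library, a log2 ratio of 2.55 (2.30 to 2.80). A20 cells without Isg15 held 30.4 CPM in the TAK-981 library, against 13.6 CPM in the vehicle library, a log2 ratio of 1.16 (1.01 to 1.32). The Isg15-positive A20 cells carried 60.6% of the family's A20 UMIs in the TAK-981 library, against 18.8% in the vehicle library. Cycling A20 cells, with at least 2 UMIs of Mki67 and Top2a, had a log2 ratio of 1.99 (1.85 to 2.12), and those with none of either 1.75 (1.37 to 2.14), intervals that overlap.

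In T cells the family was higher in TAK-981 cells both with and without a CD8 transcript. The 22 TAK-981 and 37 vehicle T cells with a Cd8a or Cd8b1 UMI held 628 and 165 CPM of the family, a log2 ratio of 1.93 (1.52 to 2.34). The 23 TAK-981 and 23 vehicle T cells without one held 769 and 98.1 CPM, a log2 ratio of 2.97 (2.43 to 3.55). The TAK-981 levels of these groups overlap in their intervals (525 to 746 and 662 to 889 CPM), as do the vehicle levels (132 to 204 and 67.5 to 138 CPM). The intervals of their log2 ratios (1.52 to 2.34 and 2.43 to 3.55) do not overlap. The CD8 share of T cells was 48.9% in the TAK-981 library, against 61.7% in the vehicle library, and its part in the class ratio was not tested. T cells with an Isg15 UMI, 35 in the TAK-981 library, against 10 in the vehicle library, held 843 and 445 CPM of the family, a log2 ratio of 0.92 (0.48 to 1.39). T cells without Isg15, 10 in the TAK-981 library, against 50 in the vehicle library, held 243 and 94.4 CPM, a log2 ratio of 1.36 (0.64 to 2.04).

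In myeloid cells the ratio was also taken without cells that held certain markers, which does not match the libraries in their other markers. Without C1q-positive cells, 39 TAK-981 and 36 vehicle cells held 1631 and 124 CPM of the family, a log2 ratio of 3.72 (3.31 to 4.15), against 3.32 (3.00 to 3.67) in the whole class. Without cells that held a neutrophil marker, an alternative added after the data had been seen, the log2 ratio was 3.06. T cells that held fewer than 5 UMIs of Cd79a, Cd79b, Mzb1 and Jchain together had a log2 ratio of 2.20, against 2.34 (2.03 to 2.65) in all T cells.

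Between classes, the log2 ratio of the family was higher in myeloid than in T cells by 0.98 (0.54 to 1.43), higher in myeloid than in A20 cells by 1.34 (0.99 to 1.68), and higher in T than in A20 cells by 0.35 (0.03 to 0.68). These differences carry counting error only and were not tested over animals.

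The third question was which other genes differed like the family. Among 3790 genes with at least 20 UMIs in every class, the 5 with the closest log2 ratios in T, myeloid and A20 cells, by straight-line distance over the 3 values, were Xaf1, Parp14, Mndal, Ifih1 and Gbp5. Xaf1, an interferon-induced promoter of cell death, had log2 ratios of 2.49 in T, 2.84 in myeloid and 2.00 in A20 cells. Parp14, a mono-ADP-ribosyltransferase, had 2.66, 3.44 and 1.54, in the same order of classes. Mndal, of the interferon-inducible Ifi200 family, had 2.31, 2.83 and 2.36. Ifih1, the cytosolic sensor of double-stranded RNA, had 2.54, 3.73 and 1.36. Likeness rests on 3 values per gene from the same pair of libraries.

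A pair of further members by RefSeq synonym, picked after their values had been seen, had few UMIs. Gm12185 (Irgb2b1), the fifth gene with the promoter arrangement, had 22 UMIs in TAK-981 A20 cells and 3 in vehicle A20 cells, a log2 ratio of 3.58 (1.85 to 5.97). It had 2 UMIs in TAK-981 T cells and 0 in vehicle T cells and 0 in the myeloid cells of both libraries. Gm5431 (Irgb9b8) had 18 UMIs in TAK-981 myeloid cells and 2 in vehicle myeloid cells, a log2 ratio of 3.73 (1.66 to 6.88), and 0 in the T cells of both libraries. Of 5 further genes of the wider family, 1 was measured in T and in myeloid cells and 3 in A20 cells. At least 2-fold higher were that 1 in T cells (6.32% of all genes) and in myeloid cells (10.8% of all genes), and 2 in A20 cells (3.46% of all genes). The gene measured in the host classes was 9930111J21Rik2 (Irgb5), with log2 ratios of 2.54 (1.25 to 4.02) in T, 2.03 (0.88 to 3.31) in myeloid and 1.67 (1.21 to 2.15) in A20 cells. In A20 cells 9930111J21Rik1 had 18 UMIs in the TAK-981 library, against 6 in the vehicle library, a log2 ratio of 2.29 (0.90 to 3.91). Irgq had a log2 ratio of 0.31 (0.03 to 0.60) in A20 cells, with 5.51 CPM in the TAK-981 library, against 4.43 CPM in the vehicle library.

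The guanylate-binding proteins, larger interferon-induced GTPases that act on the same vacuoles, were also higher. At least 2-fold higher were 8 of 9 measured in T cells (6.32% of all genes), 7 of 8 in myeloid cells (10.8% of all genes) and 6 of 9 in A20 cells (3.46% of all genes), with median log2 ratios of 2.12, 2.23 and 1.19. Gbp2b had 21 UMIs in TAK-981 T cells and 2 in vehicle T cells, a log2 ratio of 4.35 (2.32 to 7.49), and Gbp2 had 105 UMIs in TAK-981 T cells and 22 in vehicle T cells, a log2 ratio of 3.21 (2.54 to 3.94). Gbp3 was at 10.6 CPM in TAK-981 A20 cells and 10.8 CPM in vehicle A20 cells, a log2 ratio of -0.02 (-0.22 to 0.17). Gbp8 was at 19.3 CPM in TAK-981 myeloid cells and 24.3 CPM in vehicle myeloid cells, a log2 ratio of -0.34 (-1.90 to 1.10). The guanylate-binding proteins thus had members near no difference, which the 8 immunity-related GTPases did not have where they were measured.

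Of 11 genes that signal upstream of the family, 2 were at least 2-fold higher in each class, where 6.32% of all genes were so in T, 10.8% in myeloid and 3.46% in A20 cells. They were Stat2 and Irf9 in T and A20 cells, and Stat2 and Tyk2 in myeloid cells. Tyk2, a kinase of the receptor for type I interferon, rests there on 9 UMIs in the TAK-981 library, against 5 in the vehicle library, a log2 ratio of 1.41 (-0.33 to 3.33). Stat2, a subunit of the ISRE-binding complex, had log2 ratios of 1.88 (0.71 to 3.15) in T and 2.71 (1.75 to 3.81) in myeloid cells. Irf9, its DNA-binding subunit, had log2 ratios of 1.35 (0.50 to 2.22) in T and 0.68 (-0.03 to 1.38) in myeloid cells. In A20 cells Irf9 was at 33.0 CPM in TAK-981 A20 cells and 9.60 CPM in vehicle A20 cells, a log2 ratio of 1.78 (1.63 to 1.94). Stat2 in A20 cells was at 14.5 CPM in the TAK-981 library, against 7.02 CPM in the vehicle library, a log2 ratio of 1.05 (0.85 to 1.25). Both chains of the receptor for type I interferon stayed under 2-fold in each class. Ifnar1 had log2 ratios of -0.15 (-0.88 to 0.54) in T, -0.62 (-1.48 to 0.19) in myeloid and 0.62 (0.46 to 0.78) in A20 cells, and Ifnar2 had -0.23 (-0.36 to -0.10) in A20 cells.

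The ubiquitin-like conjugation genes of autophagy, whose products effector loading depends on, were mostly close to no difference. None of 10 was at least 2-fold higher in any class, where 6.32% of all genes were so in T, 10.8% in myeloid and 3.46% in A20 cells. The median log2 ratios of the 10 were 0.08 in T, -0.21 in myeloid and 0.02 in A20 cells. At least 2-fold lower were 0 of 10 in T cells, against 9.32% of all genes measured, 0 of 10 in A20 cells, against 1.5%, and 2 of 10 in myeloid cells, against 14.3%. Those were Gabarapl1, with 9 UMIs in the TAK-981 library, against 29 in the vehicle library (-1.13, -2.39 to -0.01), and Atg16l1, with 2 UMIs in the TAK-981 library, against 8 in the vehicle library (-1.44, -4.72 to 0.88).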

How the data were processed

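Single-cell RNA was measured in 1 TAK-981 and 1 vehicle library. The values the authors deposited are raw UMI counts, as whole numbers for each barcode and gene, per the file headers. Tumours were dispersed mechanically, dead cells were removed and the 10x 5′ kit was used, per the labels' protocols. The submitters' processing notes name Cell Ranger 2.1.1 and Seurat 2 without saying what each did. The genome build of the counts is not given in the sources used here, and the only coordinates are those of RefSeq promoters. No barcode held fewer than 4670 UMIs in the TAK-981 library or 5965 in the vehicle library, so low barcodes had been removed. No doublet caller was run, 0 cells met both the T and the myeloid rule, and 11 barcodes occurred in both libraries.

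UMIs were summed per class and divided by the class total. The ratio of TAK-981 over vehicle has an exact conditional binomial 95% interval, and shares have exact (Clopper-Pearson) intervals. Against 0 UMIs, and for a share of 0 cells, the limit was 3 counts. Levels carry exact Poisson intervals, and differences between classes a delta-method interval. No interval covers variation between cells or mice, so they are too narrow where few cells hold many UMIs. Ratios were checked on simulated counts that held counting error only, which does not test the intervals where cells vary more than that. Tools were matplotlib 3.10.9, pandas 2.3.3, scipy 1.17.1 and numpy 2.4.6 in Python 3.11.15, with seed 1 for thinning. All members were described, and of each other list the 2 highest and 2 lowest genes per class with at least 10 UMIs could be named. A gene of the upstream signalling list is not reported here. The members, lists and rules were chosen with earlier results of these data known. Alternatives were another scaling, cell weight, depth, mitochondrial limit and class rule, and leaving out single cells or subsets.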

Additional observations from a re-analysis of the deposited data

Results flagged for a closer look

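Barcodes outside the 3 classes also held more of the family in the TAK-981 library, above the vehicle level measured the same way. The 182 TAK-981 and 160 vehicle cells that met no class rule held 128 and 28 family UMIs, 69.7 CPM (58.1 to 82.8) and 13.5 CPM (8.95 to 19.5), a log2 ratio of 2.37 (1.77 to 3.02). In them Irgm1 had 30 UMIs in the TAK-981 library, against 6 in the vehicle library, Igtp 31 and 7, Tgtp2 13 and 1, and Ifi47 36 and 12. B cell markers were found in 145 of the 182 TAK-981 and 137 of the 160 vehicle cells, and myeloid markers in 14 and 22.

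The 376 TAK-981 and 124 vehicle barcodes with 10% or more mitochondrial UMIs held 69 and 12 family UMIs, 29.2 CPM (22.7 to 37.0) and 12.2 CPM (6.30 to 21.3), a log2 ratio of 1.26 (0.37 to 2.28). Iigp1 had 8 UMIs in the TAK-981 library, against 6 in the vehicle barcodes of this kind, a log2 ratio of -0.85 (-2.56 to 0.96). No myeloid marker UMI was found in either set, while B cell markers were found in 370 TAK-981 and 123 vehicle barcodes. T cell markers were found in 40 TAK-981 and 16 vehicle barcodes, and that list includes Cd2, which A20 cells also held.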

How the results depend on the processing

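The family's log2 ratio lay between 2.20 and 2.47 over 10 alternatives in T cells, 3.06 and 3.67 over 10 in myeloid cells, and 1.88 and 2.02 over 9 in A20 cells. It moved outside its counting interval only in myeloid cells without the cell with most family UMIs in each library (3.67). No alternative turned a direction. With each cell thinned to 4000 UMIs, the median over members was 2.94 in myeloid and 1.96 in A20 cells. Without the cell with most UMIs of each gene it was 2.81 in T and 1.88 in A20 cells. Without neutrophil-marker cells it was 3.05 in myeloid cells. The causes of these shifts were not tested. Thinning lowered the share of cells with a family UMI to 75.6% in TAK-981 and 40.0% in vehicle T cells, and to 12.6% in TAK-981 and 4.29% in vehicle A20 cells, which follows from fewer UMIs per cell. Of 183 values for single members under the alternatives, 1 fell under 2-fold (Tgtp1 in A20 cells, 0.91 with the mitochondrial limit at 5%). Tgtp1 in A20 cells was 2.20 with each cell weighted equally, and Ifi47 in myeloid cells 4.57 thinned. With at least 30 UMIs required, 4 of the T cell members were counted. Without Ifi47 the effectors together were 2.43 in T, 2.59 in myeloid and 1.58 in A20 cells. No paired analysis was possible because each arm has 1 library. Depth limits Gm4951 in all classes and Tgtp1 in host cells.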
